A study of Mus musculus with 10 samples.

Results

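Tubulins are the building blocks of microtubules. The alpha and beta tubulin isotypes described here are 10 genes, taken by name from a table of 56748 mouse genes: the alpha genes Tuba1a, Tuba1b and Tuba4a, and the beta genes Tubb2a, Tubb2b, Tubb3, Tubb4a, Tubb4b, Tubb5 and Tubb6. Each name matched a row, and all 10 passed the filter on low counts. Their transcripts were counted by RNA-seq in 5 libraries of sorted CD11b+ cells, the microglia, which are macrophages resident in brain, and in 5 libraries of bulk brain prepared from hemi brains without sorting. All animals were young males of the C57BL/6 genotype, with no treatment named. CD11b is carried by other myeloid cells too, and nothing in the labels says whether a library is 1 animal or a pool, so that p-values measure the spread between these libraries.

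One alpha and one beta chain form the tubulin dimer, and dimers polymerise end to end into the wall of the microtubule. Mammals have several genes for each chain. The proteins are nearly alike over most of their length and differ mainly in the acidic carboxy-terminal tail, which projects from the microtubule surface and is the site of enzymatic modifications such as removal of the last tyrosine of alpha tubulin and addition of glutamate chains. Cells also adjust tubulin mRNA to the amount of free dimer: the first residues of a nascent tubulin chain are recognised on the ribosome by TTC5, and the mRNA is then degraded. Neurons, whose axons and dendrites are filled with microtubules, are a rich source of tubulin in brain.

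The starts of the coding sequences are shown because they encode the residues that TTC5 reads, with the first 4 codons in capitals. They were taken from the GENCODE vM21 transcripts and are printed for the most abundant isotype of microglia in each family and for the isotype with the lowest level there.
Tuba1b: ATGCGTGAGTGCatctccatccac
Tubb5: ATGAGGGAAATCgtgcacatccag
Tubb3: ATGAGGGAGATCgtgcacatccag
The first 4 codons took 2 forms among the 3 alpha genes and 5 forms among the 6 beta genes examined, Tubb6 not being included. The forms of Tubb5 and Tubb3 therefore differ as DNA, although both stand for methionine, arginine, glutamate and isoleucine.

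The end of the Tuba4a coding sequence is shown because it holds the codon for the last residue, here in capitals before the stop codon.
Tuba4a: tatgaggacgaggatgagggagaaGAGtag
Tuba4a ends in GAG, a glutamate codon, and not in a tyrosine codon. The ends of 4 beta coding sequences follow, with the glutamate codons GAA and GAG in capitals.
Tubb5: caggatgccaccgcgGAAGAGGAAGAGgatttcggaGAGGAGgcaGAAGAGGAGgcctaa
Tubb2a: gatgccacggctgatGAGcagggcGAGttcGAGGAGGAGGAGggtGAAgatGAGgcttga
Tubb2b: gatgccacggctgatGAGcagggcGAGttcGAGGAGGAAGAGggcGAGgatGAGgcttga
Tubb3: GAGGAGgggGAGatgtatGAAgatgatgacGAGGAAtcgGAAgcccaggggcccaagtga
Glutamate codons numbered 8 in Tubb2a, Tubb2b and Tubb3, 9 in Tubb4a and Tubb5, and 10 in Tubb4b among the last 20 codons before the stop, a window that starts 1 codon before the bases shown. Tubb3 ended in AAG, a lysine codon, where the other beta genes examined ended in an alanine codon.

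Likeness between isotypes bears on how reads are assigned. The coding sequences of Tuba1a and Tuba1b were 98.3% identical, those of Tubb2a and Tubb2b 96.5%, and the beta pairs ranged from 80.7% upward. Of all stretches of 100 bases in a transcript, the share also found in a transcript of another gene was 73.0% for Tuba1b, 65.8% for Tuba1a, 46.7% for Tuba4a, 36.9% for Tubb2a, 30.6% for Tubb4b and 27.7% for Tubb2b. No such stretch was shared by Tubb3, Tubb4a, Tubb5 or Tubb6. How the authors counted reads that map to several genes is not given in the sources used here, so the levels of the first 6 genes are less certain than those of the other 4. For Tuba4a the shared stretch was that of Stk16, a kinase gene on the opposite strand which had 41.2 CPM (counts scaled to the TMM-adjusted library size) in the sorted cells and 41.9 in bulk brain. The strand setting is not given either, and at 612 counts over the microglia libraries against 5199 for Stk16, the level of Tuba4a in microglia could include reads of Stk16.

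Library totals ran from 25087489 to 28514509 counts in microglia and from 25845049 to 34709215 in bulk brain. The sort was checked on marker genes. All 9 microglial markers were higher in the sorted libraries, at a summed 31515 to 32719 CPM against 232 to 266 in bulk brain. Border macrophage markers were higher as well (5 of 5, summed level 388 to 501 CPM against 6.49 to 9.03). Of 4 markers of monocytes and neutrophils, which also carry CD11b, 3 were tested and all 3 were higher, the list summing to 30.7 to 40.6 CPM against 0.358 to 0.861. Higher as well were markers of cycling cells (5 of 5, 31.9 to 41.1 CPM against 2.74 to 5.38). The bulk libraries did not form one group. Replicates 3, 4 and 5 differed from each other by 5.17 to 7.21 in chi-square per degree of freedom, but by 93.9 to 246 from replicates 1 and 2. Replicates 1 and 2 differed from each other by 41.9, and replicate 2 lay further from replicates 3 to 5 than replicate 1 did. Because 9 of the 10 tubulins stood higher in bulk replicates 1 and 2 than in the other 3, against 34.96% of the genes tested, the log2 differences, ratios and shares of the tubulins and the counts of the lists are also given with bulk replicates 3 to 5 alone. A level in bulk brain is a sum over cell types, and fewer cells of a type cannot be told apart from less RNA per cell.

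Of the 10 tubulins, 9 were lower in microglia than in bulk brain, none was higher, and Tubb6 did not pass the threshold (edgeR quasi-likelihood test, Benjamini-Hochberg adjusted p under 0.05 over the 18969 genes tested). Over all genes tested, 43.9% were lower, 37.2% higher and 81.0% one or the other. The 5 microglia libraries all lay below the 5 bulk libraries for those 9 tubulins, as they did for 40.5% of all genes tested. The median log2 difference, microglia minus bulk brain, was -3.01 over the tubulins and -0.14 over all genes. With bulk replicates 3 to 5 alone, 9 tubulins were again lower and 0 higher, with a median of -2.80. Summed over the 10 genes, tubulin transcripts made up 469 ± 34.9 CPM in microglia (SD, n = 5), which is 14.2% of the 3303 ± 915 CPM in bulk brain. The alpha genes stood at 16.8% and the beta genes at 12.7% of bulk brain.

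**Figure D1:**
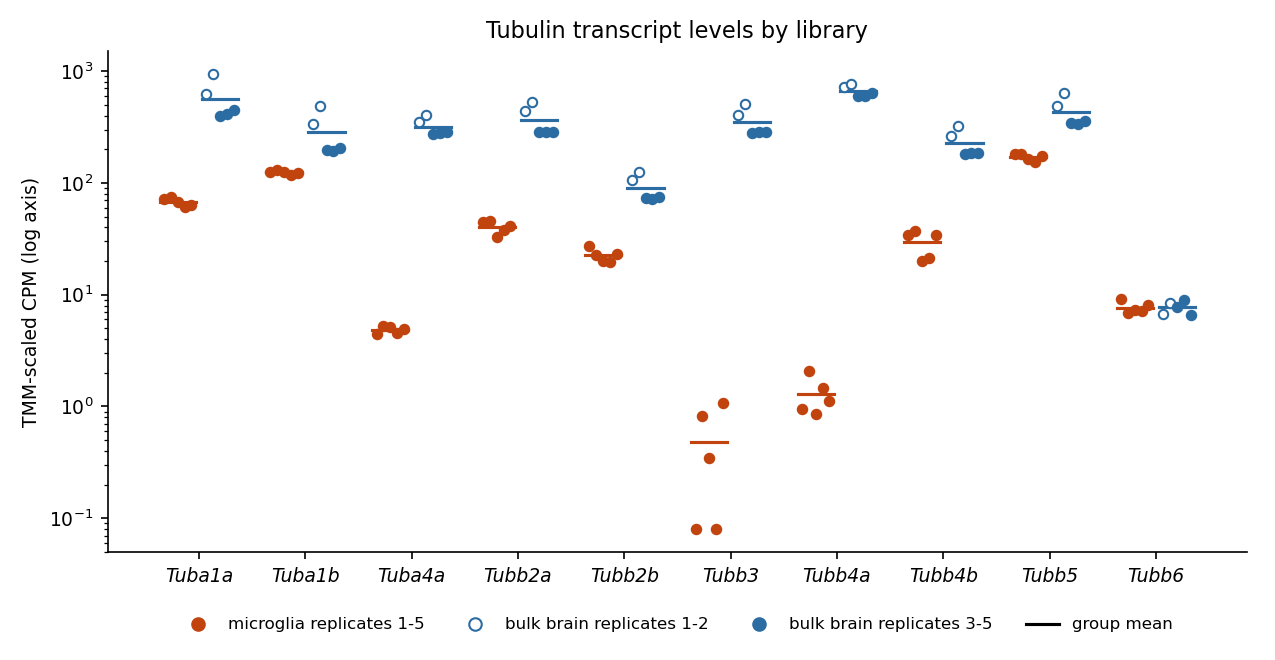
Level of each tubulin gene in every library, in TMM-scaled CPM on a log axis. Red points are microglia, open blue points bulk brain replicates 1 and 2, filled blue points bulk brain replicates 3 to 5, and lines are group means. The groups are apart for 9 genes and mixed for Tubb6, whose 10 values lie between 6.63 and 9.10 CPM.

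Tuba1b encodes an alpha chain made in most cell types. Its levels in microglia replicates 1 to 5 were 125, 131, 126, 117 and 123 CPM, and in bulk brain replicates 1 to 5 they were 334, 491, 199, 193 and 206 CPM. The microglia values were close to each other, with a coefficient of variation of 3.96%, and the groups did not overlap. Microglia held 43.8% of the bulk level (log2 difference -1.19 ± 0.25, SE, adjusted p = 7.9e-04). Against bulk replicates 3 to 5 alone they held 62.6%, by CPM scaled over all 10 libraries. The edgeR fit without bulk replicates 1 and 2, filtered and scaled anew, gave a log2 difference of -0.83 (adjusted p = 6.6e-10). Because the scaling differs, the percentage and the log2 difference do not convert into each other. Tuba1b was the tubulin for which bulk replicates 1 and 2 exceeded the others most, 2.07-fold.

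Tuba1a, the alpha isotype that dominates in neurons and is mutated in human cortical malformations, stood at 71.0, 75.5, 66.8, 60.8 and 62.9 CPM in microglia. In bulk brain it reached 623, 950, 396, 412 and 445 CPM. Every bulk library was thus above every microglia library, and microglia held 11.9% of the bulk level (log2 difference -3.07 ± 0.24, adjusted p = 2.3e-07). Against bulk replicates 3 to 5 alone the log2 difference was -2.79.

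Tuba4a, whose coding sequence ends without a tyrosine codon as printed above, was near the bottom of the microglia range, at 4.41, 5.24, 5.17, 4.54 and 4.92 CPM. Bulk libraries held 353, 401, 275, 281 and 286 CPM. Microglia therefore held 1.52% of the bulk level (log2 difference -6.04 ± 0.15, adjusted p = 1.9e-11, and -6.01 against bulk replicates 3 to 5 alone). Of all genes tested, 14.3% had a lower log2 difference.

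Tubb5, a beta isotype made in most dividing and non-dividing cells, was the beta gene with the highest level in microglia: 181, 180, 162, 155 and 175 CPM. Bulk brain held 486, 632, 344, 335 and 355 CPM. The lowest bulk library was above the highest microglia library, and microglia held 39.6% of the bulk level (log2 difference -1.34 ± 0.18, adjusted p = 2.1e-05). Against bulk replicates 3 to 5 alone they held 49.4% (log2 difference -1.17).

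Tubb6, a beta isotype made at low level in many tissues, was the 1 tubulin that did not pass the threshold. Microglia held 9.10, 6.90, 7.29, 7.08 and 8.004 CPM, and bulk brain 6.65, 8.46, 7.75, 8.97 and 6.63 CPM. The groups overlapped throughout. The group means were 7.68 ± 0.90 and 7.69 ± 1.05 CPM (SD, n = 5), with a log2 difference of -0.0032 ± 0.15 (SE, adjusted p = 0.99). Its log2 difference moved between -0.19 and 0.07 over the 20 alternatives, with adjusted p from 0.27 to 1.0, and was -0.18 (adjusted p = 0.30) with bulk replicates 3 to 5 alone, so no direction was detectable at this spread.

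Tubb2a and Tubb2b lie close together on chromosome 13 and encode nearly the same protein, of which Tubb2b is known for its role in neuronal migration. Tubb2a stood at 44.6, 45.2, 32.5, 38.0 and 41.1 CPM in microglia against 441, 530, 288, 286 and 285 CPM in bulk brain, with no overlap. Tubb2b stood at 27.1, 22.4, 19.9, 19.7 and 23.1 CPM against 106, 125, 73.0, 71.5 and 74.7 CPM, again with no overlap. Microglia held 11.01% of the bulk level of Tubb2a (log2 difference -3.18 ± 0.21, adjusted p = 4.0e-08) and 24.9% of that of Tubb2b (log2 difference -2.003 ± 0.18, adjusted p = 7.1e-07). With bulk replicates 3 to 5 alone the log2 differences were -2.98 and -1.86.

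Tubb4b is widely expressed and is a main beta chain of motile cilia. Its microglia levels were 34.5, 36.9, 20.2, 21.3 and 33.8 CPM, and its bulk levels 264, 319, 181, 184 and 186 CPM. Microglia replicates 3 and 4 were lower than the other 3, and all were far below the bulk libraries. The log2 difference was -2.95 ± 0.24 (adjusted p = 2.6e-07, and -2.81 with bulk replicates 3 to 5 alone), and microglia held 12.9% of the bulk level.

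Tubb3 encodes the beta chain used as a marker of neurons. It was counted 2, 21, 9, 2 and 26 times in the 5 microglia libraries, or at 0.0795, 0.814, 0.347, 0.0796 and 1.08 CPM, against 402, 502, 278, 287 and 283 CPM in bulk brain. The microglia values spread widely among themselves, and the highest was still far below every bulk library. Microglia held 0.137% of the bulk level (log2 difference -9.51 ± 0.55, adjusted p = 1.4e-08, and -9.36 with bulk replicates 3 to 5 alone). Only 3.89% of all genes tested had a lower log2 difference.

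Tubb4a encodes a beta chain made mainly in brain, in neurons and in oligodendrocytes, and is mutated in a human disorder of myelin. It was the tubulin with the most counts in bulk brain, at 716, 766, 597, 598 and 638 CPM. Microglia held 0.954, 2.09, 0.848, 1.47 and 1.13 CPM. No library of one group came near the other, and microglia held 0.196% of the bulk level (log2 difference -8.99 ± 0.26, adjusted p = 5.4e-11, and -9.03 with bulk replicates 3 to 5 alone).

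**Figure D2:**
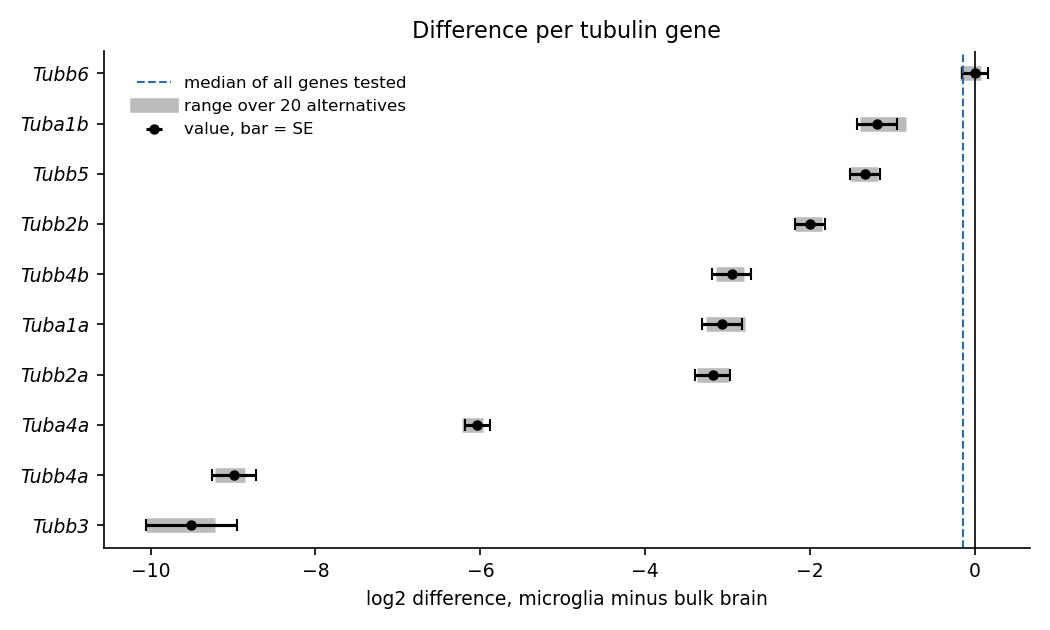
Log2 difference of each tubulin gene, microglia minus bulk brain. Points are the fitted values with their SE, grey bars the range over 20 alternative ways of processing, and the dashed line the median of all genes tested (-0.14). The 9 genes below Tubb6 stay left of 0 over their whole range, from -0.83 for Tuba1b to -10.06 for Tubb3, while the range of Tubb6 spans 0.

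Levels of different genes can be compared only per length, so CPM were divided by the gene length of the table in kilobases. In microglia the order was Tuba1b (66.5 ± 2.63 CPM per kilobase), Tubb5 (51.3 ± 3.44), Tuba1a (37.4 ± 3.33), Tubb2a (25.0 ± 3.25), Tubb4b (14.0 ± 3.80), Tubb2b (9.78 ± 1.30), Tubb6 (3.15 ± 0.37), Tuba4a (1.31 ± 0.10), Tubb4a (0.583 ± 0.23) and Tubb3 (0.257 ± 0.24; SD, n = 5). Neighbours in that order had separate ranges, except that Tubb4b overlapped Tubb2b and Tubb4a overlapped Tubb3. Bulk brain had another order: Tuba1a (314 ± 129), Tubb4a (298 ± 33.7), Tubb2a (227 ± 70.7), Tubb3 (188 ± 53.2), Tuba1b (152 ± 69.0), Tubb5 (129 ± 38.6), Tubb4b (109 ± 29.8), Tuba4a (86.2 ± 14.98), Tubb2b (39.2 ± 10.5) and Tubb6 (3.16 ± 0.43). There, each of the first 8 genes overlapped its neighbour, and only Tubb2b and Tubb6 were set apart. Tubb4a and Tubb3, at the bottom in microglia, were among the first 4 in bulk brain.

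The make-up of each family was followed as the share of each isotype in the summed reads per kilobase of its family, library by library, as a description. Tuba1b made up 63.3 ± 1.21% of the 3 alpha genes in microglia and 27.0 ± 1.88% in bulk brain. Tuba1a went the other way, with 35.5 ± 1.27% in microglia and 56.5 ± 1.44% in bulk brain. Tuba4a made up 1.25% and 16.5%. The ranges of the 2 groups were separate for each of the 3 genes, although the absolute level of all 3 was lower in microglia. In bulk replicates 3 to 5 alone the shares of Tuba1a, Tuba1b and Tuba4a were 56.0%, 25.7% and 18.3%.

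Among the 7 beta genes, Tubb5 alone made up 49.5 ± 2.60% in microglia and 12.9 ± 0.74% in bulk brain. Tubb4a went from 0.559 ± 0.20% in microglia to 30.6 ± 3.49% in bulk brain, and Tubb3 from 0.241 ± 0.22% to 18.7 ± 0.84%. These 2 genes and Tubb5 had the largest differences in share among the 7. Tubb2a had overlapping shares (24.02 ± 1.23% and 22.6 ± 1.66%), and so had Tubb4b (13.3 ± 2.29% and 10.9 ± 0.38%). Tubb2b made up 9.40 ± 0.62% in microglia and 3.93 ± 0.13% in bulk brain, and Tubb6 3.04 ± 0.33% and 0.331 ± 0.09%. In bulk replicates 3 to 5 alone Tubb4a made up 33.0%, Tubb2a 21.4%, Tubb3 18.2%, Tubb5 12.5%, Tubb4b 10.6%, Tubb2b 3.84% and Tubb6 0.385%. Counted without the division by length, several shares moved by over 1.5 times: Tuba4a was at 2.47% in microglia and 28.5% in bulk brain, there above Tuba1b at 23.8%, Tubb2a was at 14.8% in microglia, and Tubb5 was at 19.96% in bulk brain.

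**Figure D3:**
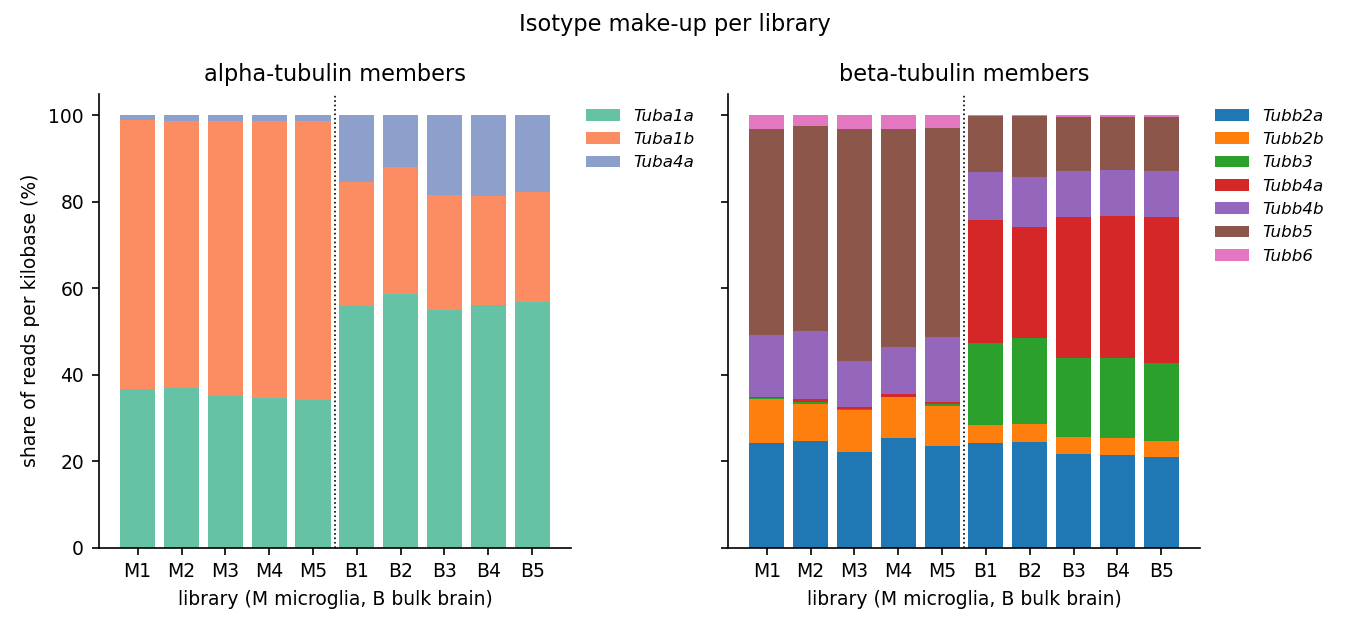
Share of each isotype in the summed reads per kilobase of the 3 alpha genes (left) and the 7 beta genes (right), in percent, with 1 bar per library (M1 to M5 microglia, B1 to B5 bulk brain). Tuba1b and Tubb5 fill the largest part of every microglia bar, and Tuba1a, Tubb4a, Tubb2a and Tubb3 the largest parts of the bulk bars.

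Whether isotypes differed from each other in their contrast between the groups was tested on 4 ratios within each library, which do not depend on scaling between libraries, by an exact two-sided permutation test over the 252 splits of 5 libraries against 5. The log2 ratio of Tuba1a to Tuba1b, the most alike pair, ranged from -0.97 to -0.79 in microglia and from 0.90 to 1.11 in bulk brain. The group means of -0.89 and 1.01 differed by -1.90. The alpha pair thus changed places, with Tuba1b ahead in all 5 microglia libraries and Tuba1a ahead in all 5 bulk libraries. For Tubb2a to Tubb2b the ratio kept its sign, with a mean of 0.84 in microglia and 2.01 in bulk brain and a difference of -1.17.

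The ratio of Tubb4a to Tubb4b had a mean of -4.51 in microglia and 1.58 in bulk brain, a difference of -6.09. The ratio of Tubb6 to Tubb3 had a mean of 4.58 in microglia and -5.47 in bulk brain, a difference of 10.06. In each of the 4 ratios all 5 microglia libraries lay on one side of all 5 bulk libraries. Each exact p was 0.0079 before and after adjustment over the 4, the smallest that 5 against 5 can give. Tubb6 and Tubb3 had the highest and the lowest log2 difference of the tubulins, and those of Tubb4a and Tubb4b were also far apart. The separation of these ratios therefore restates the levels given above and is no further support. With bulk replicates 3 to 5 alone the differences were -1.96, -1.13, -6.24 and 9.77. Because Tuba1a and Tuba1b, and Tubb2a and Tubb2b, share much of their sequence, the size of their ratios depends on how reads that fit both were counted.

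Tubb3 and Tubb4a in the microglia libraries were compared with markers of the cells in which they are known to be made. All 10 neuronal markers were lower in microglia, with a summed level of 16.0 to 21.1 CPM against 6251 to 7418 CPM in bulk brain, and none was at 0 over the microglia libraries. Elavl4, an RNA-binding protein of neurons, held 11.03% of its bulk level, and the other 9 held 0.039% (Syt1, a synaptic vesicle protein) to 0.397% (Rbfox3, a splicing factor of neuronal nuclei). Tubb3 at 0.137% and Tubb4a at 0.196% lay inside that range, with 8 of the 10 markers below each of them. Snap25, a synaptic protein, stood beside Tubb3 at 0.137%. All these percentages are against the 5 bulk libraries together. Against bulk replicates 3 to 5 alone, Tubb3 held 0.170% and Tubb4a 0.213%. Both tubulins were higher in bulk replicates 1 and 2 than in the others. The summed neuronal markers were lower there, at 6527 and 6251 CPM, against 7067 to 7418 CPM in replicates 3 to 5. Of the other tubulins, Tuba4a at 1.52% and Tubb2a at 11.01% lay above all neuronal markers but Elavl4. Tuba1a at 11.9%, Tubb4b at 12.9%, Tubb2b at 24.9%, Tubb5 at 39.6%, Tuba1b at 43.8% and Tubb6 at 99.8% lay above Elavl4 too. What part of each level came from RNA of neurons was not tested.

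Other markers in the microglia libraries were retained to a different degree. The 7 oligodendrocyte markers were all lower, at a summed 2.94% of bulk brain (143 to 246 CPM against 5695 to 7746) and a median of 1.32%. Mog, a myelin surface protein, was lowest at 0.316%, and Mbp, the myelin basic protein, stood at 2.88%. Tubb4a, at 0.196%, thus lay below all 7. The 7 astrocyte markers were all lower, at a summed 3.57%, but with a median of 0.438% and a range from 0.227% to 25.7%. The 5 mural markers were lower too, at a summed 4.94% and a median of 5.95%. The 4 markers of oligodendrocyte precursors were lower, at 0.750%, and so were the 3 of immature neurons, at 0.544%. Of the 6 endothelial markers, 4 were lower and 1 higher, at a summed 43.7%, with Pecam1, which myeloid cells also make, above its bulk level. Igfbpl1, of immature neurons, was the 1 marker among these with 0 counts in all microglia libraries. Their part in the tubulin levels was not tested.

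**Figure D4:**
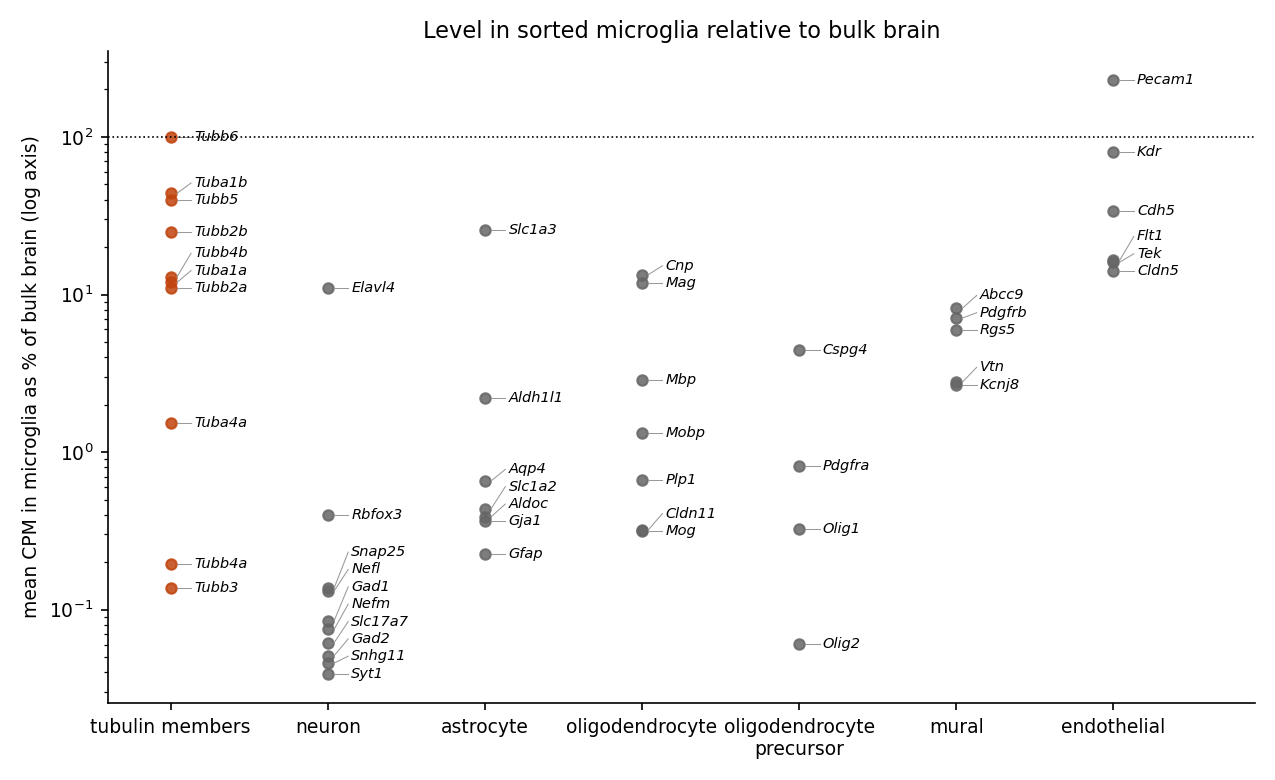
Mean CPM in microglia as a percentage of that in bulk brain over all 5 libraries, on a log axis. Shown are the 10 tubulin genes (red) and the markers of 6 other cell types (grey). Each point is a gene and the dotted line marks equal levels (100%). Tubb3 (0.137%) and Tubb4a (0.196%) lie at the height of neuronal markers, and Tubb4a lies below every oligodendrocyte marker (lowest 0.316%). Tuba4a (1.52%) lies above all neuronal markers but Elavl4, and the other 7 tubulins at 11.01% to 99.8%.

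Tubulin genes outside the 10 had a lower summed level, 40.9 CPM in microglia against 109.7 in bulk brain. Of 10 listed, 6 passed the low-count filter, and of these 1 was higher, 4 lower and 1 not past the threshold, with a median log2 difference of -0.97. The number higher was 2 with microglia replicate 4 or any 1 bulk library left out, and with bulk replicates 3 to 5 alone, where Tubb1 passed the filter as well. Tuba1c, an alpha gene close to Tuba1a and Tuba1b, had 15.9 ± 1.499 CPM in microglia and 16.3 ± 5.73 in bulk brain (adjusted p = 0.88). Tuba8 was counted at 0.032 CPM in microglia and 15.8 ± 2.22 in bulk brain (log2 difference -8.78, adjusted p = 2.6e-08). The gamma tubulins, which nucleate microtubules, differed in size: Tubg1 was lower by a log2 difference of -1.26 (adjusted p = 6.8e-05) and Tubg2 by -8.95 (0.0647 ± 0.07 against 33.5 ± 8.33 CPM, adjusted p = 2.9e-09). Tubd1, the delta tubulin of centrioles, was higher (7.03 ± 1.31 against 4.25 ± 0.56 CPM, log2 difference 0.72, adjusted p = 0.0029). Tubb1, the beta isotype of platelets and their precursors, had 64 counts over the microglia libraries and 0 in bulk brain, which is at least 28.6-fold higher when the bulk group is set to a limit of 3 counts in all. Of 4 platelet markers, 2 were tested, and they went opposite ways. Gp9 was higher, at 18.3 ± 1.75 CPM in microglia against 0.108 ± 0.13 in bulk brain (log2 difference 7.30). Itga2b was lower, at 0.677 ± 0.29 against 2.62 ± 0.90 CPM (log2 difference -1.95). Ppbp and Gp1bb had 0 counts in microglia and did not pass the low-count filter.

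Genes that make, modify and organise microtubules were counted in lists. These counts, and those of the other tubulins above, stand beside 43.9% lower and 37.2% higher over all genes tested with all libraries. Chaperones that fold tubulin are prefoldin and the CCT ring. Of their 14 genes, 1 was higher, 8 lower and 5 not past the threshold (median log2 difference -0.45), and with bulk replicates 3 to 5 alone 1 was higher and 9 lower. Among the prefoldin genes, Pfdn1, Pfdn2, Pfdn4, Pfdn6 and Vbp1 were lower, at 22.7% to 61.0% of bulk brain, and Pfdn5 did not pass. Cct4 was higher (174 ± 14.9 against 113 ± 24.04 CPM, log2 difference 0.62, adjusted p = 0.0015), and Pfdn1 had the largest fall (7.93 ± 1.35 against 34.9 ± 15.2 CPM, log2 difference -2.14, adjusted p = 1.4e-05). Of the 7 genes of the tubulin folding cofactors and their regulators, which assemble the dimer after CCT, 5 were lower, 0 higher, and 2 did not pass (median -0.77), with the same counts in bulk replicates 3 to 5 alone. The largest fall was that of Arl2, a small GTPase of that pathway (17.1 ± 1.14 against 56.1 ± 31.8 CPM, log2 difference -1.72, adjusted p = 2.8e-04).

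Of 31 listed enzymes and partners that modify tubulin, 30 had a row, and 26 were tested. Of these, 2 stood higher in microglia and 18 lower, and 6 did not pass (median -1.93). With bulk replicates 3 to 5 alone, 4 were higher and 20 lower. Among the tubulin tyrosine ligase-like enzymes, Ttll4, a glutamylase, was higher (94.3 ± 2.25 against 29.1 ± 9.05 CPM, log2 difference 1.70, adjusted p = 8.2e-06). Ttll3, a glycylase, was higher too (53.6 ± 4.18 against 20.4 ± 3.12 CPM, log2 difference 1.39, adjusted p = 6.2e-07). Ttll7, a glutamylase that acts on beta tubulin, was lower (1.11 ± 0.41 against 348 ± 104 CPM, log2 difference -8.28, adjusted p = 6.6e-10). Ttl, which puts tyrosine back on alpha tubulin, was lower (16.6 ± 1.97 against 71.5 ± 4.39 CPM, log2 difference -2.10, adjusted p = 4.7e-09). Agbl4, a carboxypeptidase that removes glutamates, had 0 counts in microglia and 1604 in bulk brain. With the microglia group set to the limit of 3 counts in all, it was at least 399.5-fold lower.

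The genes of nucleation, which encode partners of gamma tubulin and centrosomal anchors, were mostly not lower. Of 11 tested, 6 stood higher in microglia, 1 was lower and 4 did not pass (median 0.64). With bulk replicates 3 to 5 alone, 6 were higher and 3 lower. Tubgcp5, a subunit of the gamma tubulin ring complex, was at 290 ± 16.0 CPM in microglia and 38.8 ± 8.45 in bulk brain (log2 difference 2.90, adjusted p = 6.5e-09). Nedd1, which targets that complex to centrosome and spindle, was higher by a log2 difference of 2.56 (27.9 ± 1.46 against 4.72 ± 1.49 CPM, adjusted p = 3.0e-07). Mzt1, a small subunit of the complex, was lower (44.6 ± 2.05 against 86.0 ± 7.49 CPM, log2 difference -0.95, adjusted p = 1.0e-06).

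Severing enzymes cut microtubules, and stathmins sequester dimers. Of 12 tested, 8 were lower, 3 higher, and 1 did not pass (median -3.32), with the same counts in bulk replicates 3 to 5 alone. All 4 stathmins were lower: Stmn3 stood at 0.407 ± 0.31 CPM in microglia and 531 ± 309 in bulk brain (log2 difference -10.34, adjusted p = 1.9e-08), Stmn2 and Stmn4 at under 1 CPM in microglia, and Stmn1 at 16.6 ± 1.67 against 423 ± 216 CPM (log2 difference -4.67, adjusted p = 6.5e-08). The genes of severing went both ways. Among them, Fign, Katnal2 and Katnal1 were lower, at 1.76%, 1.80% and 25.6% of bulk brain, and Katna1 was higher, at 292%. Fignl2, of the fidgetin family, had the largest rise (9.84 ± 0.93 against 2.34 ± 0.81 CPM, log2 difference 2.07, adjusted p = 4.7e-06), and Spast, the severing enzyme spastin, was higher by 0.53 (adjusted p = 0.0011). Of the 2 genes of mRNA autoregulation, Ttc5 was higher (97.0 ± 4.66 against 42.9 ± 6.54 CPM, log2 difference 1.18, adjusted p = 1.2e-06), and Scaper, which links TTC5 to mRNA decay, was lower (27.8 ± 1.82 against 42.0 ± 8.52 CPM, log2 difference -0.60, adjusted p = 0.0023).

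**Figure D5:**
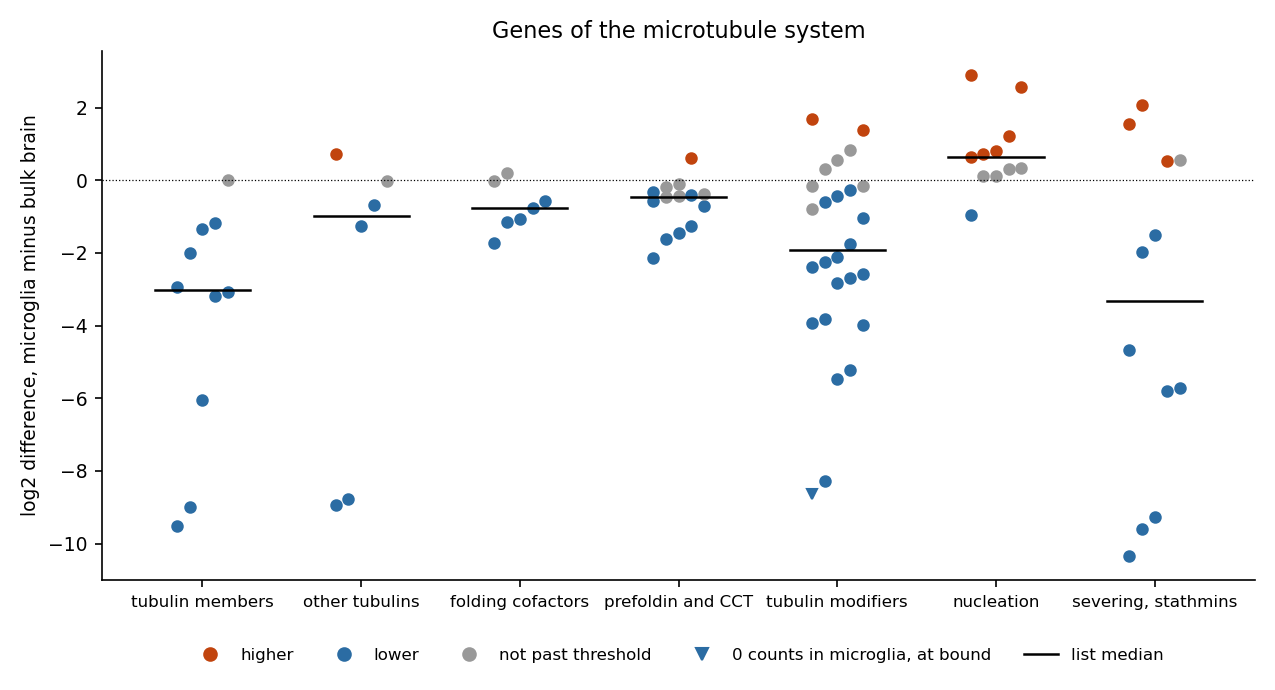
Log2 difference, microglia minus bulk brain, of the tested genes in 7 lists of the microtubule system. Red points passed the threshold as higher, blue as lower, grey points did not pass, the triangle is Agbl4 at its bound, and lines are list medians. The medians run from -3.32 for severing enzymes and stathmins to 0.64 for nucleation, and that of the tubulin members is -3.01.

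The upstream sequence of Tubb5 and of Tubb3 is shown to set the beta gene that kept a high level in microglia beside the one with the lowest level. Each is the 250 bases before the RefSeq start site in GRCm38.p6, a build other than the GRCm39 of the counts, at chr17:35838302-35838551 on the minus strand for Tubb5 and at chr8:123411303-123411552 on the plus strand for Tubb3. Capitals mark 4 motifs on either strand: the CCAAT box, spelled CCAAT, the TATA box, searched as TATAAA, the GC box, searched as GGGCGG, and the core letters bound by the myeloid factor PU.1, searched as GAGGAA.
Tubb5: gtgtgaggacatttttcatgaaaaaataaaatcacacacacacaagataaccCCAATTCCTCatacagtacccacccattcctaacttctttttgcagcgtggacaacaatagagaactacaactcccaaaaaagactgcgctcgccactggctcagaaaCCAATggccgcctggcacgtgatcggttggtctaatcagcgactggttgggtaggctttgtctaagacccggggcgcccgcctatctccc
Tubb3: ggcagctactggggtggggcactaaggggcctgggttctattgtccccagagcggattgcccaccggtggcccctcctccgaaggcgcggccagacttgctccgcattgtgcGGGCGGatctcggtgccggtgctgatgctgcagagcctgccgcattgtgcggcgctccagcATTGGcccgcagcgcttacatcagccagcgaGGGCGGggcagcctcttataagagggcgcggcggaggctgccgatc
Promoters of 8 of the 10 tubulins were matched. CCAAT was present in 4 of the 8 and in 33.8% of the 32851 promoters in the table, GGGCGG in 6 and in 32.7%, TATAAA in 1 and in 12.4%, and GAGGAA in 1 and in 23.3%. That 1 was Tubb5, where its reverse complement overlaps a CCAAT by 1 base. Tubb4b held 5 copies of CCAAT. The GC content was 49.2% for Tubb5 and 68.0% for Tubb3, beside a median of 52.4% over all promoters.

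Over 15008 coding genes outside the tubulins, those with the profile most like a tubulin were sought by the root mean square distance between log2 CPM profiles over the 10 libraries, each centred on its own mean. For Tubb6, the tubulin with the highest log2 difference, they were Tdrd3 (distance 0.13 on the log2 scale, 24.7 ± 1.28 CPM in microglia and 25.8 ± 1.34 in bulk brain) and Gtdc1 (0.14, 34.5 ± 1.79 and 36.6 ± 3.75 CPM). For Tubb3, with the lowest, they were Cdk5r2 (0.36, 0.357 ± 0.42 and 191 ± 45.5 CPM) and Gap43 (0.37, 0.380 ± 0.29 and 245 ± 76.4 CPM). Cdk5r2 activates a kinase of neurons and Gap43 is a protein of growing axons.

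In the table's own coordinates on GRCm39, Tuba1b (chromosome 15, 98829306 to 98832446) and Tuba1a (98847718 to 98851584) lie close together on the minus strand, as do Tubb2a (chromosome 13, 34258257 to 34261990) and Tubb2b (34310731 to 34314449). Tubb5 (36144813 to 36149198) and Tubb4a (57387066 to 57394782) are both on chromosome 17, Tuba4a on chromosome 1 (75190872 to 75196509), Tubb4b on chromosome 2 (25112172 to 25114714), Tubb3 on chromosome 8 (124138163 to 124148754) and Tubb6 on chromosome 18 (67523787 to 67535819). Tuba1a and Tuba1b differed, though close together, in their contrast between the groups, by the ratio given above, as did Tubb2a and Tubb2b. Besides Stk16, the genes overlapping a member with counts were Gm41396 at Tuba1b (11 counts in microglia, 45 in bulk brain) and Fam166a at Tubb4b (18 and 42). Gm49450, a coding gene on the same strand, overlaps Tuba1a and Tuba1b and had 0 counts in both groups. Pseudogene rows named for a tubulin held at most 401 counts in a group (Tubb4b-ps1 in bulk brain, 19 in microglia). None was named for Tuba1a or Tuba1b, whose shared stretches lay mainly in Tuba1c and in genes named otherwise, such as AC157548.1. Adding pseudogene counts therefore does not bear on these alpha genes.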

How the data were processed

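RNA-seq was measured in 5 sorted microglia and 5 bulk brain libraries, poly-A selected per the labels' protocols. The values are raw counts, 1 table for the whole series, as deposited by the authors. The submitters' processing notes name CASAVA, HISAT2 2.2.1, featureCounts 2.0 and GRCm39 (mm39), without their roles. No value column lacked a sample (0).

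Genes were kept by filterByExpr (18969 of 56748), scaled by TMM and tested with edgeR 4.0.16 (limma 3.58.1, R 4.3.3), group as the only term. P-values were adjusted by Benjamini-Hochberg over all genes tested. Each SE was derived from the log2 difference and its F statistic (size over root F). CPM are counts scaled by TMM. Isotype ratios added 0.5 counts, and profiles for likeness 0.1 CPM. The test was checked on simulated data with the same spread for every gene and few changed genes. Those data had neither the split of the bulk libraries nor the large share of differing genes seen here, so the check does not cover them. Sequences came from GENCODE vM21 and RefSeq (GRCm38.p6), with no coordinates mixed. The limit of 3 counts covers counting error only, while each SD and SE includes the spread between libraries.

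The members and lists were chosen with earlier results of these data known. All 10 members are named, and so are the 2 genes most like the highest and the lowest member. Named of each other tubulin or microtubule list are the largest rise and the largest fall past the threshold with at least 1 CPM. For the marker lists, the largest rise or fall is not always named. Other genes named were chosen after their values were seen. Alternatives were 3 scalings, 2 filters, DESeq2 1.42.0, limma-voom, a replicate block, bulk replicates 3 to 5 alone, pseudogene counts added, and each library left out. Same-numbered libraries did not deviate together, which does not exclude that they are paired.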

Additional observations from a re-analysis of the deposited data

How the results depend on the processing

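Over 20 alternatives, 9 tubulins were lower and 0 higher in each, and no tubulin changed its call. The median log2 difference of all genes, -0.14 with TMM, was -0.31 with median-of-ratios size factors, -0.33 with library size alone and -0.07 with upper-quartile scaling, and the log2 difference of Tubb6 took either sign. Genes lower numbered 8320, and 12197 without the low-count filter. With each library left out they numbered 8575 to 9033, and genes higher 6677 to 7127. Higher genes among the other tubulins went from 1 to 2 under 8 alternatives, and those among the tubulin modifiers from 2 to 4 with limma-voom and with bulk replicates 3 to 5 alone. Lower genes numbered 7 to 12 for prefoldin and CCT, 4 to 6 for the folding cofactors and 17 to 21 for the modifiers over the alternatives. Higher genes of nucleation numbered 4 to 6. Whether the replicate numbers pair the libraries could not be decided. Same-numbered libraries had deviations correlated at -0.05 to 0.03, and 1 of 5 correlated best with its own number. This cannot exclude pairing, because sorted cells and whole tissue of the same animal need not deviate together. With the replicate block the 4 ratio differences were again -1.90, -1.17, -6.09 and 10.06, with an adjusted p of 0.0625, the smallest that 5 pairs allow. Leaving out each library, they ranged from -1.93 to -1.87, -1.21 to -1.13, -6.25 to -5.93 and 9.57 to 10.49. Raw counts in place of reads per kilobase gave a share of 62.9% for Tubb5 in microglia and 47.7% for Tuba1a in bulk brain, and moved Tuba4a in both groups, Tubb2a in microglia and Tubb5 in bulk brain by over 1.5 times. The 60 counts of Tubb3 over the microglia libraries limit the precision of its level.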
